A study of Homo sapiens with 2 samples.

Results

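Chaperone and chaperonin transcripts were examined for crosslink sites of RBMS3, an RNA-binding protein with RNA recognition motifs. The set holds 42 protein-coding genes of 20046 in the annotation, namely heat shock proteins, chaperonin subunits, J-domain proteins, BAG proteins, cochaperones and prolyl isomerases, with the heat shock transcription factor HSF1. A site was given to a gene when its deleted base lay between the gene's first and last base on the same strand. By this rule 37 of the 42 genes held 213 of the 27706 listed sites, and HSPA1A, BAG1, STUB1, FKBP4 and HSF1 held none.

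Chaperones bind unfolded or partly folded proteins and keep them from aggregating. HSP70 proteins take up substrates from J-domain proteins and release them with the help of nucleotide exchange factors, HSP90 completes the folding of kinases and steroid receptors, and the ring-shaped chaperonins enclose their substrates in a cavity. Most of these transcripts are abundant in proliferating cancer cells, and several are induced through the transcription factor HSF1. The set is broader than the cytosol: HSPA9, HSPD1 and HSPE1 work in mitochondria, HSPA13 and DNAJB14 are attached to the endoplasmic reticulum, and DNAJC8 and HSF1 work in the nucleus.

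The data were a CLIP-seq experiment in MDA-MB-231, a triple-negative breast cancer cell line that carried lentivirally delivered, doubly FLAG-tagged RBMS3 behind the EF1a promoter. The 2 biological replicates formed the only group, and the labels of replicate 2 name the line in 2 ways, of which the title's MDA-MB-231 was used. Cells were irradiated at 254 nm with 400 mJ per cm2, the protein was pulled down on FLAG beads after RNase trimming, the RNA was tailed with A, and oligo(dT) captured and primed it, so that RNA with its own A tail or an internal A-rich stretch could be captured alike. No library without the tagged protein, no RNA level of the genes and no counts of the single replicates were analysed here, and the tagged protein came on top of whatever RBMS3 the line makes.

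Each site is given by its tags, the unique reads of both replicates that cover it, and its deletions, the tags that lack the base where the protein was crosslinked. Member sites had from 7 to 64693 tags with a median of 10391, against a median of 2883.5 over the whole list. The fewest deletions at a listed site with 5000 tags or more were 37 in both the members and the whole list. Contacts with fewer deletions at such coverage are not in the list, and a gene without a site is not shown to be unbound. Deletion numbers can rise with the amount of RNA, which was not measured here, so they were not read as affinity.

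Sites are shown first for the 10 members with the most deletions at 1 site. Each sequence holds 29 bases of the RNA strand from hg38, written 5′ to 3′ as DNA, with the deleted base at the 15th place. Capitals mark the poly(A) signals AATAAA and ATTAAA, to which the cleavage machinery binds upstream of the place where an mRNA is cut. The HSP90 pair has a second line each, for a site in the coding sequence, where the site of the first HSP90AA1 line also lies.
HSPA9: aatttttttttttttaAATAAAtacagaa
CCT5: accatctcaactgcttttgtattcattgt
FKBP1A: gtgctttatgccggcttttctcagctctg
HSP90AB1: taaagaatatgccgtttttatacagttct
HSPD1: tatgtgacaacctttgtgtAATAAAaatt
HSPA13: AATAAAtaccattttgcagtttgtttttt
DNAJC8: gtggtaatattctttatgtatAATAAAtt
HSP90AA1: tgaggggaagactttagtgtcagtcacca
HSPA1B: gtttttataatttgtttatttaaatatga
PTGES3: agtgttgtgtgatttgattgaAATAAAac
HSP90AA1 coding: gagaaggaacgtgataaagaagtaagcga
HSP90AB1 coding: aaagaagaggaagataaagatgatgaaga

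The first 10 lie at chr5:138555345-138555373 (minus strand), chr5:10264962-10264990 (plus), chr20:1368972-1369000 (minus), chr6:44253860-44253888 (plus), chr2:197486597-197486625 (minus), chr21:14371118-14371146 (minus), chr1:28200568-28200596 (minus), chr14:102083153-102083181 (minus), chr6:31830206-31830234 (plus) and chr12:56663370-56663398 (minus), in the order shown. In 9 of these 10 the deleted base lay in the 3′UTR of the canonical transcript, and in HSP90AA1 it lay in the coding sequence. A signal stood within 25 bases of the deleted base in 9 of the 10, in 4 of them outside the 29 bases printed or cut by their edge. The exception was HSP90AA1. The deleted base was U in 9 and C in FKBP1A. These 10 were picked by their deletions. With the strongest 3′UTR site of each of the 37 members, 83.8% had a signal. Over all 3′UTR sites of the list with under 30% of tags deleted, 72.2% had a signal and 65.3% a deleted U.

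Across the set, 88.1% of members held a site, with a 95% Wilson interval of 75.0 to 94.8% (37 of 42), whereas 37.6% of all protein-coding genes did. All 37 held a site in a 3′UTR of at least 1 annotated transcript, against 31.8% of all protein-coding genes. Sites with the deletion in under 30% of tags were present in 34 members (81.0%), against 29.1% of all protein-coding genes. A bound member held a median of 4 sites and a bound protein-coding gene a median of 2, and 16 of the 37 (43.2%) held 5 or more, as did 24.3% of all bound protein-coding genes. Since RNA levels were not analysed, these shares cannot be told apart from the abundance of the transcripts. The members and the other genes below were chosen with earlier results of these data known, so their intervals are not those of a random sample. Among 59 other genes of the chaperone network, 33 held a site (55.9%, interval 43.3 to 67.8%). Those with the most deletions at 1 site were BTF3, a subunit of the nascent polypeptide-associated complex (549 of 22944 tags), PDCD5, a prefoldin-like protein (306 of 16730), the prefoldin subunits PFDN4 (206 of 12365) and VBP1 (169 of 7467), and the J-domain protein DNAJC9 (168 of 15656).

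**Figure D1:**
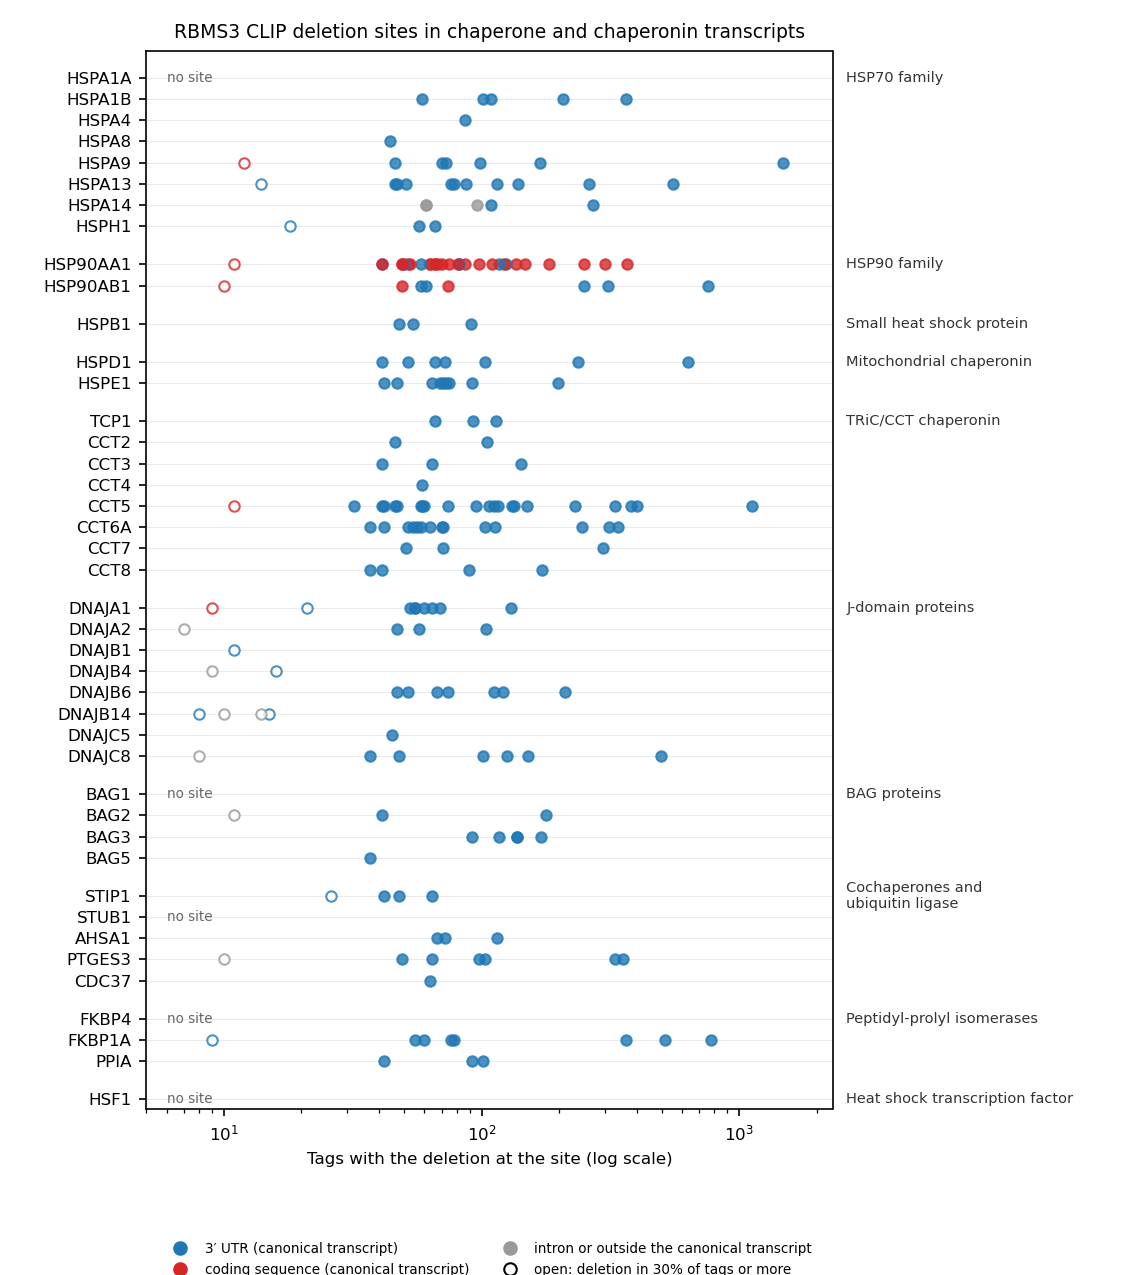
Every listed site of the 42 genes, with the tags that carry the deletion on a log axis and the genes grouped by role. Filled points are sites with the deletion in under 30% of tags and open points the others, blue is the 3′UTR and red the coding sequence of the canonical transcript, and grey is intron or outside it. HSPA9 and CCT5 hold the sites with the most deletions (1477 and 1123), and the filled red points are those of HSP90AA1 and HSP90AB1.

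Of the 213 member sites, 197 lay in an annotated 3′UTR (92.5%), 6 in coding sequence, 1 in a noncoding exon and 9 in introns. Over the whole list 76.6% of sites lay in a 3′UTR. With the canonical transcript alone, 173 member sites (81.2%, interval 75.4 to 85.9%) were in the 3′UTR, a share not computed for the whole list. In coding sequence were 30, and 24 of these 30 belonged to HSP90AA1. The deletion was carried by under 30% of tags at 192 sites (90.1%), against 70.1% of the whole list. These 192 sites had at least 269 tags and 32 deletions, and a median of 0.932% of tags with the deletion.

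The other 21 sites stood apart by depth, with a median of 14 tags. This was not particular to members, since the 8280 sites of the whole list at 30% or more had a median of 16. The 21 member sites had at most 30 tags and 26 deletions. Of the 21, 10 lay in a 3′UTR, 4 in coding sequence, 6 in introns and 1 in a noncoding exon. For DNAJB1, DNAJB4 and DNAJB14 they were the only sites. DNAJB1 and DNAJB4, which stimulate HSP70, had 11 of 14 tags and, at the stronger of 2 sites, 16 of 17 tags with the deletion. DNAJB14, a J-domain protein of the endoplasmic reticulum membrane, had 4 such sites with 10 to 30 tags. The deletion was in 41.7 to 100% of the tags at the 21 sites, and its source there was not tested.

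**Figure D2:**
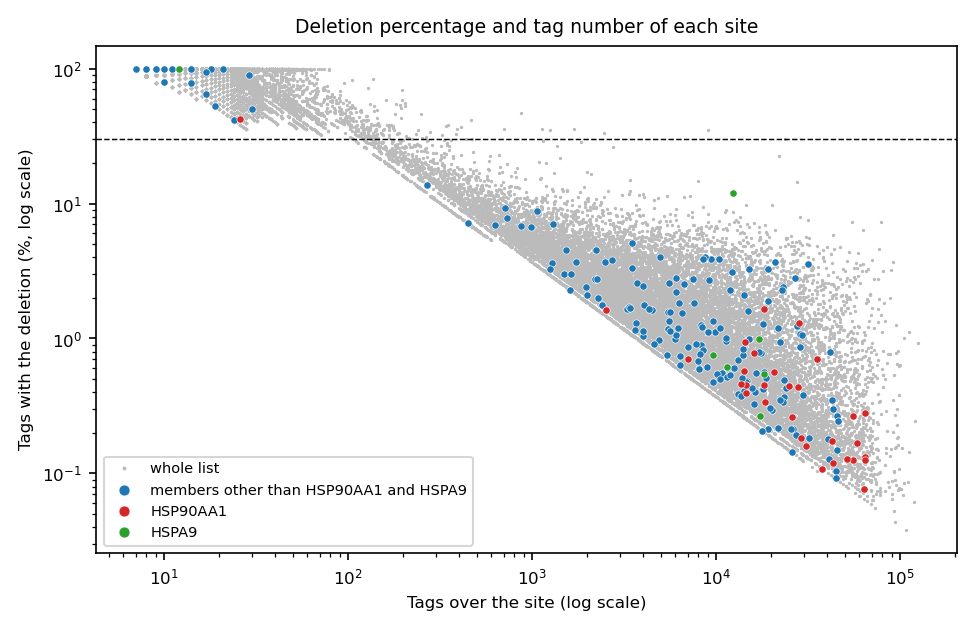
Percentage of tags with the deletion against the tags over the site, both on log axes, for the whole list (grey), HSP90AA1 (red), HSPA9 (green) and the other members (blue). The dashed line marks 30%. The members fall into 192 sites below the line and 21 sites above it with at most 30 tags, and the HSPA9 site with 12348 tags reached 12.0%.

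Member sites in 3′UTRs were concentrated before transcript ends. The nearest annotated end downstream was a median of 31 nt away, and 156 of 197 sites (79.2%, interval 73.0 to 84.3%) lay within 100 nt of one, against 69.3% of all 3′UTR sites in the list. Between 10 and 40 nt from an end were 49.2% of member sites and 42.7% of all 3′UTR sites. Sites of 1 gene are neighbours and share their reads, so the intervals cover counting error only and are too narrow for a statement on genes. By genes, 33 members had a 3′UTR site within 100 nt of an annotated end, as did 25.8% of all protein-coding genes, and 26 had one within 100 nt of the canonical end, as did 20% of all. Among genes with a 3′UTR site, these were 89.2% of the 37 members (interval 75.3 to 95.7%) against 81.0% of 6371 genes, and 70.3% (54.2 to 82.5%) against 62.9%. Both intervals held the value of all such genes. Of the 156 sites, 62 in 13 members were over 100 nt from the canonical end, and HSP90AA1 alone held 18 of these. The same count was not made for the whole list, so whether it is unusual cannot be told.

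Sites within 50 nt of each other were merged, and the one with the most deletions stood for the cluster, which gave 58 member clusters in 3′UTRs. AATAAA or ATTAAA stood within 25 nt of the deleted base in 65.5% of them (interval 52.7 to 76.4%), and in 60.6% of all 9972 3′UTR clusters. In clusters with the deletion in under 30% of tags the shares were 77.1% for members and 75.6% for the list. The AUA motif, here A, G or U followed by A or U, then AUA, then A or U, then A, was in 53.4% of member clusters and 47.8% of all. Matches that do not contain AATAAA were in 12.1% of member clusters and 14.6% of all. The deleted base was U in 75.9% of member clusters and 74.3% of all. On each of these measures the interval of the members held the value of the list.

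**Figure D3:**
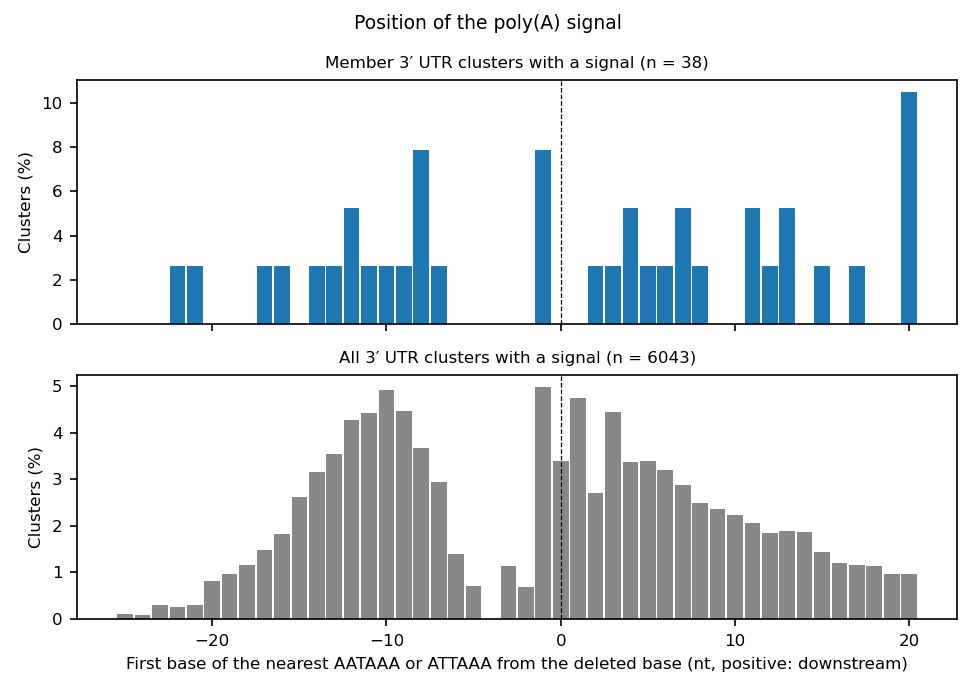
Place of the nearest poly(A) signal, as the distance of its first base from the deleted base, in percent of the 3′UTR clusters with a signal (38 in members, 6043 in the list). Signals lay on both sides of the deleted base, with 52.6% of members' and 46.4% of all signals starting downstream.

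Among the HSP70 proteins, the ATP-driven chaperones that hold extended peptides, 7 of 8 genes had sites, 33 in all. HSPA9, the mitochondrial HSP70 also called mortalin, had the site with the most deletions of the set. It had 1477 of 12348 tags with the deletion (12.0%, interval 11.4 to 12.5%), in a run of 13 U, so which U was lost cannot be told. The site next to it, 3 nt downstream, had 70 of 11463 tags. This pair lay 137 to 140 nt before the nearest annotated end and 1600 to 1603 nt before the canonical end, with AATAAA shortly after the U run. Another 4 HSPA9 sites lay 8 to 29 nt before an end that is annotated for a retained-intron transcript, with 46 to 169 deletions and no AATAAA or ATTAAA in their windows.

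HSPA13, a microsome-associated HSP70-like ATPase, held 11 sites. In 8 of them, 17 to 64 nt before the canonical end, 51 to 551 deletions were counted, and 2 more, 1692 and 1738 nt upstream of it, had 46 and 47 deletions and AATAAA in their windows. HSPA14, a ribosome-associated HSP70 relative, had 2 sites before its end (271 of 11853 and 109 of 11316 tags) and 3 in an intron, where MSANTD7 lies on the same strand, so those 3 cannot be assigned to 1 gene. HSPA4 and HSPH1 encode HSP110-type proteins that exchange the nucleotide of HSP70. Their sites near an end, with 86 of 5478 and 66 of 714 tags, lay 31 and 7 nt before the ends of retained-intron transcripts, and 2003 and 2007 nt before the canonical ends. HSPA8, the constitutive HSC70, had a single site with 44 of 631 tags, 18 nt from its canonical end.

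HSPA1A and HSPA1B encode the stress-induced HSP70, and their coding sequences were identical at 1922 of 1926 positions, whereas the longest stretch their 3′UTRs shared was 10 bases. All sites of the pair fell in HSPA1B, 30 to 55 nt before its end, with 364, 207, 109, 101 and 59 deletions in 5986 to 9813 tags. HSPA1A had none. Both ends are shown, since they differ where the sites lie. Each line holds 30 bases in DNA letters with AATAAA in capitals, first the 30 bases that start 59 nt before the last base of the transcript (chr6:31817883-31817912 and chr6:31830195-31830224), then the last 30 (chr6:31817913-31817942 and chr6:31830225-31830254).
HSPA1A upstream: acttaactcaggccattttttaagttggtt
HSPA1B upstream: tgggaatgtatgtttttataatttgtttat
HSPA1A last: acttcaaagtaAATAAActttaaaattcaa
HSPA1B last: ttaaatatgaaaAATAAAatgttaaacttt

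Both ends held AATAAA, which started 18 nt (HSPA1A) and 17 nt (HSPA1B) before the last base. Runs of 3 or more U numbered 2 and 5 in the last 60 nt, and A and U made up 75.0% and 85.0% of them. The HSPA1B sites lay upstream of the signal. The RNA levels of the pair were not analysed, so the lack of HSPA1A sites cannot be told apart from a lower level of its RNA. The HSPA1B sites also lie within an unnamed protein-coding gene model on the same strand.

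The HSP90 genes differed in where their sites lay. HSP90AB1, the constitutive form, had 8 sites, 5 of them 9 to 51 nt before its end with 58 to 754 deletions, all with AATAAA or ATTAAA in the window. HSP90AA1, the stress-induced form, had 31 sites, the 5th highest number among protein-coding genes. None of them lay within 100 nt of its canonical end, and no window held a poly(A) signal or the AUA motif. Its 7 sites in the canonical 3′UTR lay 315 to 403 nt before the canonical end and 8 to 96 nt before the end of another protein-coding transcript. They had 41 to 124 deletions in 2524 to 20607 tags.

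Most HSP90AA1 sites were in coding sequence. A cluster of 18 spanned 107 nt, from codon 227 to codon 263 of 732, within the charged linker, an acidic and lysine-rich stretch that joins the N-terminal ATPase domain to the middle domain. It had 13655 to 64693 tags, the upper value being the highest of the set, and 0.0769 to 0.947% of tags with the deletion, 1688 deletions in all. The deleted base was G at 8 of the 18, U at 5, A at 4 and C at 1. A second cluster of 5 sites, codons 536 to 551, had 63 to 368 deletions. HSP90AB1 had 2 sites at codons 239 and 241 of 724, again in the charged linker, with 49 of 8051 and 74 of 8293 tags. These 25 sites were the only ones of the set in canonical coding sequence with the deletion in under 30% of tags.

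The linker sites had A-rich sequence after them. A made up a median of 60% of the 20 nt downstream of the 18 HSP90AA1 linker sites. The median was 35% for all 3′UTR sites with under 30% of tags deleted and 32.5% for all 218 such sites in coding sequence. These 218 lie in no annotated 3′UTR, so the 18 linker sites are not among them but among the 3′UTR sites. At least 7 A in some 10 of the next 40 nt followed 17 of the 18 (94.4%), both HSP90AB1 coding sites, 42.3% of the 3′UTR sites and 39.0% of the coding sites. With the 5 sites at codons 536 to 551 included, it followed 19 of 23 HSP90AA1 coding sites (82.6%), and the median share of A was 50%. The windows of the 18 neighbouring sites overlap, so they are not 18 separate stretches. The library was captured and primed with oligo(dT), and the part of A-rich stretches in these sites was not tested. In the count above the 18 HSP90AA1 linker sites entered as 3′UTR through a transcript subject to nonsense-mediated decay. Of the 18, 10 are near the end of a transcript that is marked as incomplete at its 3′ end. The 5 sites at codons 536 to 551 also entered as 3′UTR through a transcript other than the canonical one. HSP90AA1 so had 30 sites in 3′UTRs over all transcripts and 7 on the canonical transcript. Without HSP90AA1, 82.6% of member 3′UTR sites lay within 100 nt of an end and 69.1% of clusters held a signal.

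A processed pseudogene, HSP90AA3P on chromosome 1, held 3 sites, the strongest with 419 of 12447 tags. The 51 nt around each were identical to HSP90AA1 mRNA at 50 positions. In HSP90AA1 they correspond to codons 218 to 220, where no site was listed, 22 to 28 nt upstream of the first linker site in the mRNA but across an intron of 299 nt. Tags across that exon junction match the pseudogene without a gap, so whether they came from HSP90AA1 was not tested. Of 214 pseudogenes named after a member, 5 held sites, and the other 4 had 1 each, with at most 21 tags, all deleted. Among the 213 member sites, 61 in 16 genes had a further match of their 51 nt in the genome with at most 2 mismatches, 20 of them in HSP90AA1. PPIA had up to 37 such matches for 1 site, and how tags were shared between copies can set its counts.

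**Figure D4:**
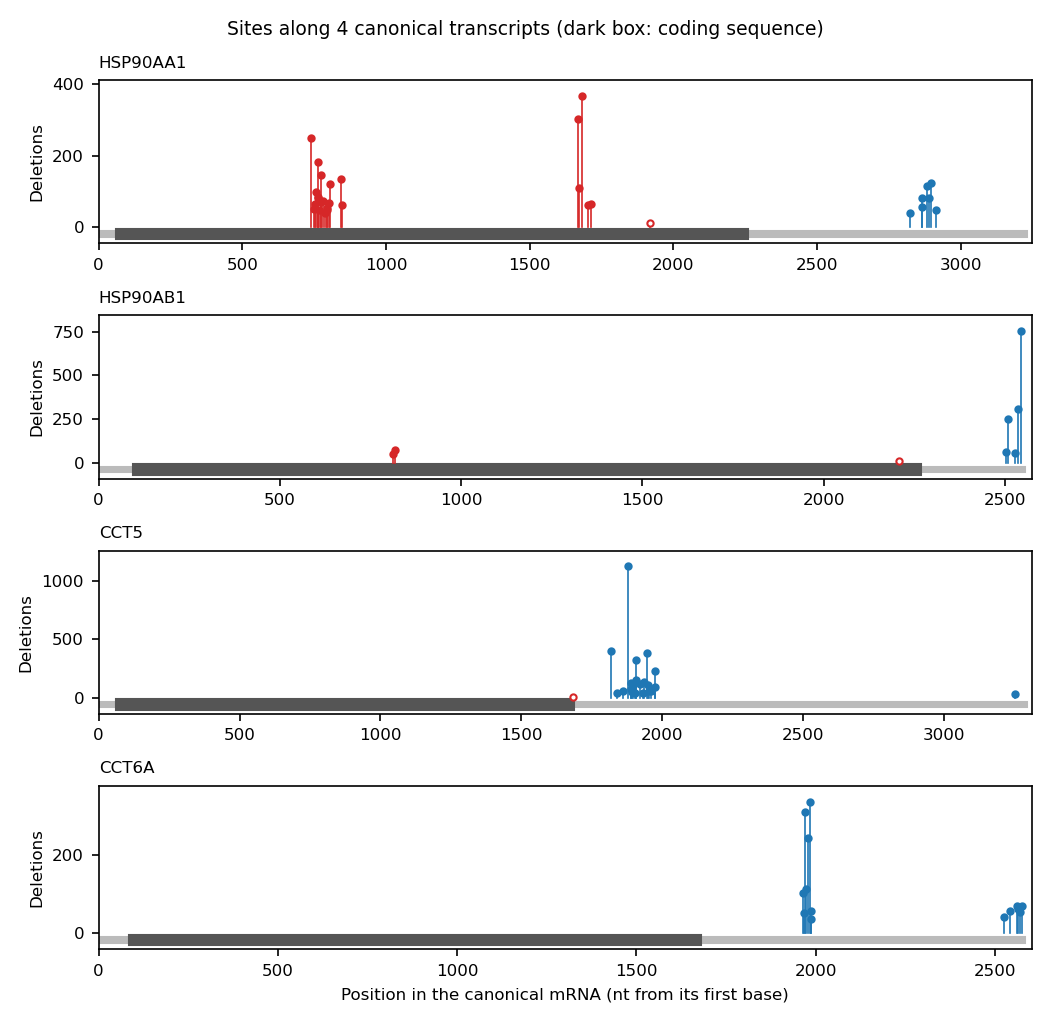
Sites along the canonical mRNAs of 4 members, with the position in nt from the first base on the horizontal axis and the tags with the deletion as the height. Dark boxes are coding sequence, red marks sites in it and blue sites in the 3′UTR, and open points have the deletion in 30% of tags or more. HSP90AA1 sites lie in the coding sequence and 315 to 403 nt before the end, HSP90AB1 sites mainly at the end, and the main groups of CCT5 and CCT6A in the first part of the 3′UTR.

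The small heat shock protein HSPB1, an ATP-independent holdase, had 3 sites 14 to 41 nt before its canonical end, with 48 to 91 deletions. The mitochondrial chaperonin is a barrel of HSPD1 capped by the cochaperonin HSPE1. All 7 HSPD1 sites lay 8 to 68 nt before its canonical end, the strongest with 631 of 19237 tags (3.28%, interval 3.04 to 3.54%). The 9 HSPE1 sites fell before 2 ends that are 68 nt apart, 5 before the upstream one (457 deletions, up to 6377 tags) and 4 before the canonical one (274 deletions, up to 14715 tags). HSPE1 shares its strand with the readthrough gene HSPE1-MOB4, so its sites count for both.

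All 8 subunits of the cytosolic chaperonin TRiC, which folds actin and tubulin, held sites, 52 in all, and 51 of these were in 3′UTRs. The numbers ran from 1 site in CCT4 to 22 in CCT5. CCT5 had 1123 of 31735 tags with the deletion at its strongest site (3.54%, interval 3.34 to 3.75%), and up to 45894 tags at others. Of its 21 sites in the 3′UTR, 20 lay before 3 ends in the first part of the canonical 3′UTR, 1311 to 1468 nt ahead of the canonical end. The ends at 10265011 and 10265078 of chromosome 5 had 10 sites (2111 deletions) and 9 sites (1223 deletions) before them. The canonical end had 1 site, with 32 of 448 tags.

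CCT6A had a similar layout with 14 sites. A group of 8, with 37 to 338 deletions and ATTAAA in each window, lay 596 to 618 nt before the canonical end and 227 to 249 nt from the nearest annotated end, that of a retained-intron transcript. The other 6, with 42 to 71 deletions, lay 9 to 59 nt before the canonical end. TCP1 had 1 site at an end 489 nt ahead of the canonical one (114 of 11313 tags) and 2 at the canonical end (93 of 1061 and 66 of 986 tags). The single CCT4 site, 59 of 10719 tags, was 12 nt from an end 345 nt ahead of the canonical one. CCT2, CCT3, CCT7 and CCT8 had sites only within 51 nt of the canonical end, with 105, 142, 297 and 171 deletions at the strongest.

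**Figure D5:**
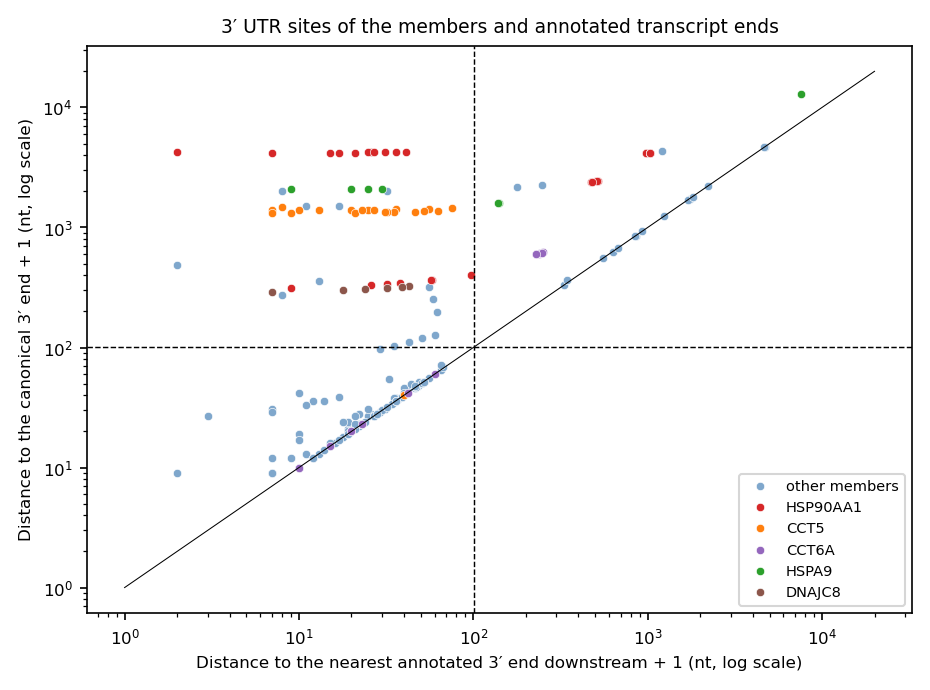
Distance of each member 3′UTR site to the closest downstream end in the annotation and to the canonical end, both as nt plus 1 on log axes, with dashed lines at 100 nt. Points on the diagonal have the canonical end as the nearest one, and points in the upper left, among them those of CCT5, DNAJC8 and HSPA9, lie before another annotated end. For HSP90AA1, 10 of the points there lie before the end of a transcript marked as incomplete.

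All 8 J-domain genes held sites, 35 in all. DNAJC8, a spliceosome-associated member, had 496 of 15173 tags at its strongest site, and all 6 of its sites in the 3′UTR lay 6 to 42 nt before an end that is 281 nt ahead of the canonical one. DNAJB6, which suppresses aggregation of polyglutamine proteins, had 7 sites 23 to 70 nt before the canonical end, with 47 to 210 deletions in up to 45884 tags. DNAJA1 and DNAJA2 are cytosolic HSP40 proteins. DNAJA1 had 3 sites at its end (53 to 64 deletions) and 2 sites 849 and 854 nt before it with AATAAA in the window (55 and 130 deletions). Another 2 DNAJA1 sites, 628 and 679 nt before the end, had 69 and 60 deletions and no signal. DNAJA2 had 2 sites at its end (47 and 104 deletions) and 1 at 1239 nt (57 deletions) with AATAAA. DNAJC5, the synaptic vesicle protein CSP alpha, had 45 of 1498 tags at 1 site 38 nt from its end.

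BAG proteins release nucleotide and substrate from HSP70. BAG3, which acts in selective autophagy, had 5 sites 13 to 50 nt before its end with 92 to 170 deletions. BAG2, an inhibitor of the ligase CHIP, had 2 sites far from any end, 4661 and 4686 nt before it, with 41 of 1252 and 178 of 3487 tags and ATTAAA in both windows. BAG5 had 1 site 556 nt before its end, with 37 of 269 tags (13.8%, interval 10.1 to 18.4%), the highest percentage among the 192. BAG1 had none, although its 3′UTR is 2748 nt long and AATAAA starts 20 nt before its last base.

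The cochaperones of HSP90 and HSP70 held 15 sites in 4 of 5 genes, and all 14 in 3′UTRs were within 100 nt of an annotated end. PTGES3, the cochaperone p23 that holds HSP90 in its closed form, had 354 of 8760 and 329 of 8537 tags at neighbouring sites before its canonical end, and 2 sites (49 and 98 deletions) before an end 264 nt ahead of it. AHSA1, which activates the HSP90 ATPase, had 3 sites with 67 to 115 deletions. STIP1, which links HSP70 to HSP90, had 3 sites with 42 to 64 deletions at its canonical end, and CDC37, which brings kinases to HSP90, had 1 with 63 of 2268 tags. STUB1, the ubiquitin ligase CHIP, had no site on its strand and neither AATAAA nor ATTAAA in its last 60 nt, of which A and U made up 36.7%.

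Of the prolyl isomerases, FKBP1A, which binds rapamycin and FK506, held 8 sites. Its strongest had 775 of 20907 tags (3.71%, interval 3.46 to 3.97%), and the deleted base was C, 8 nt before the canonical end. The next had 515 and 364 deletions in 22699 and 19258 tags. An unnamed gene on the same strand overlaps them. PPIA, cyclophilin A, had 101 of 2238 tags before its canonical end and 92 of 1295 and 42 of 2390 tags before an end 1504 nt ahead of it. FKBP4, a cochaperone of steroid receptors, and HSF1 had none.

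Counted over members, 8 had sites before 2 or more annotated ends that were over 25 nt apart: HSP90AA1, HSPB1, HSPE1, TCP1, CCT5, STIP1, PTGES3 and PPIA. This held for 4.09% of all protein-coding genes. Among genes with a 3′UTR site it was 21.6% of the 37 members (interval 11.4 to 37.2%) and 12.9% of 6371 genes, and among those with at least 5 such sites 26.7% of 15 members (10.9 to 52.0%) and 31.9% of 1443 genes. Before its upstream end STIP1 had only 26 of 29 tags at 1 site, and those of HSP90AA1 include the incomplete one. The upstream ends of HSPB1 and PPIA are those of retained-intron transcripts, and no coding sequence is defined for those at the upstream end of HSPE1. All sites of HSPB1 lay in 1 cluster, as did all sites of HSPE1. A further 11 clusters with the deletion in under 30% of tags, in 9 members, lay over 100 nt from any annotated end downstream. They were in HSPA9, HSPA13, HSP90AA1 (the coding cluster at codons 536 to 551), HSPH1, CCT6A, DNAJA1 (3 clusters), DNAJA2, BAG2 and BAG5. AATAAA or ATTAAA stood in the window of 7 of these 11 (63.6%, interval 35.4 to 84.8%), against 63.0% of 2012 such clusters in the list. Near an annotated end the shares were 81.1% of 37 member clusters and 80.4% of 5291.

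The 37 members with a site had canonical 3′UTRs of 119 to 5643 nt with a median of 970 nt, and the 5 without had 260 to 2748 nt with a median of 390 nt. The lengths of the groups overlapped. Of these 5, HSPA1A, BAG1 and FKBP4 had AATAAA or ATTAAA in the last 60 nt of the transcript, and STUB1 and HSF1 had neither.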

How the data were processed

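Per the labels, FLAG-RBMS3 CLIP-seq was done in 2 replicates. The authors removed duplicate tags by molecular identifier, aligned them to hg38, pooled both replicates and called deletion sites with the CLIP Tool Kit, with filters on false discovery rate and on a fold whose reference is not given in the sources used here. What the authors deposited are counts in 1 pooled list of 21-nt intervals with the number of tags and of deletions per site; no library total was analysed. Pooling means that a site can rest on 1 replicate, and no spread between replicates or test could be computed.

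The deleted base was taken as the centre of the interval and placed on GENCODE release 44. Features were ranked as 3′UTR, 5′UTR, coding sequence, noncoding exon and intron over all transcripts of a gene. Ends are the last bases of its transcripts. Windows had 25 nt on each side. Shares carry 95% Wilson intervals, which cover counting error only. Fuller values were planned for the 10 members with the most deletions at 1 site, the HSP90 and HSPA1 pairs and the TRiC subunits. Some of their sites are given as ranges or by deletions alone. Members and lists were chosen with earlier results of these data known; of 60 other network genes, 59 were found by name. Placement and motif functions were tested on simulated data. Python 3.11.15, scipy 1.17.1 and pysam 0.24.0 were used.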

Additional observations from a re-analysis of the deposited data

How the results depend on the processing

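No paired analysis was possible because the samples form 1 group without columns of their own, and for the same reason no replicate was left out. Of 64 alternatives for counts and shares, 44 stayed within 1.5 times the count or within the interval of the share. With at least 10% of tags deleted, a setting that keeps mainly thin sites, 17 members had a site, 10 had a 3′UTR site, 23 sites and 13 other network genes remained, and 16.7% of 3′UTR sites were near an end, with the signal and the AUA motif in 25% of 12 clusters each. Sites within 100 nt of an end (79.2%) became 54.3% on canonical transcripts, 67.0% with ends of complete protein-coding transcripts (an alternative chosen after seeing the data), 70.1% within 50 nt and 67.2% with 1 site per cluster. Clusters with a signal (65.5%) became 50% for AATAAA alone, 79.3% with 10 weaker variants, 83.8% with 1 site per gene, 77.1% under 30% of tags and 24.1% in windows of 10 nt on each side. The AUA motif (53.4%) fell to 15.5% in that window and to 12.1% for matches without AATAAA. Sites under 30% (90.1%) were 99.0% with at least 20 deletions and 100% with at least 50. The sites at 30% or more had at most 26 deletions, so the 100% was fixed in advance and the 99.0% nearly so. At the site with the most tags in place of the most deletions, 8 of 10 members had a lower deletion percentage, outside the interval of the first. In the other 2, HSPD1 and PTGES3, it was the same site. Another site can only have more tags and fewer deletions here, so the direction was fixed and says nothing on robustness. Leaving out HSP90AA1, also chosen after seeing the data, kept all 5 values computed within these limits.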
